A study of Homo sapiens with 6 samples.

Results

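Kinesins, cytoplasmic dyneins and tubulins are described here as a group of 80 protein-coding genes among the 60719 genes of the deposited tables. They were taken by symbol: KIF followed by a digit, the alpha-, beta- and gamma-tubulins (TUBA, TUBB and TUBG), the subunits of cytoplasmic dynein 1 and 2 (DYNC1 and DYNC2) and the dynein light chains (DYNLL, DYNLR and DYNLT). By role they fall into 14 mitotic kinesins, 11 transport kinesins, 10 cilium kinesins, 4 other kinesins, 10 alpha-tubulins, 10 beta-tubulins, 2 gamma-tubulins, 5 subunits of dynein 1, 4 of dynein 2 and 10 dynein light chains. The RNA came from human pluripotent stem cells (hPSCs) of the embryonic lines H1 and H9, grown on Matrigel in StemFlex medium, in 3 libraries from simulated microgravity (sµg) and 3 libraries from normal gravity (1g). The sµg cultures were turned for 96 h on a fast-rotating 2-D clinostat, a device that keeps changing the direction of gravity, and the 1g cultures stood still for the same time, so that rotation and the loss of a constant gravity vector cannot be told apart. The labels and methods do not tell which library holds which line or whether the 3 libraries of a condition were separate cultures, so every p-value rests on a spread between libraries that may be technical.

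Microtubules are polymers of alpha- and beta-tubulin dimers that grow from rings holding gamma-tubulin. Most kinesins walk toward the growing plus end of a microtubule and carry cargo, slide microtubules in the mitotic spindle or take tubulin off their ends, and cytoplasmic dynein 1 walks the other way. Dynein 2 and the kinesin-2 motors work in opposite directions along the axoneme of the primary cilium. Pluripotent stem cells divide rapidly, and spindle motors act each time a cell divides.

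Library totals were 19971097 to 20588215 expected counts in sµg and 20876937 to 28506848 in 1g, and every 1g library was deeper than every sµg library. The members held 1.29% to 1.3% of the counts in sµg and 1.19% to 1.22% in 1g. Mitochondrial genes held 4.11% to 4.76% in sµg and 5.23% to 5.33% in 1g. All 10 markers of pluripotent cells were at 1 TPM or more (the RSEM level corrected for transcript length and library size). By edgeR none was higher and 4 were lower in sµg (LIN28A, DNMT3B, SALL4 and PODXL), against 18.2% lower over all tested genes. None was higher at an unadjusted p under 0.05 or by DESeq2. POU5F1, SOX2 and NANOG were not called, with log2 fold changes (sµg over 1g) of 0.02, 0.01 and -0.08 (edgeR, adjusted p = 0.784, 0.941 and 0.117). The 10 markers summed to 5815 to 5907 TPM in sµg and 6487 to 6548 TPM in 1g. Markers of mesoderm, endoderm and trophectoderm summed to 16.3 to 20.8 TPM in sµg and 29.2 to 33 TPM in 1g, and of the 6 tested 5 were called lower and none higher by edgeR (1 higher at an unadjusted p under 0.05, none by DESeq2), among them GATA3 with 0.24, 0.16 and 0.27 TPM in sµg against 5.08, 5.68 and 6.52 TPM in 1g. Markers of fibroblasts summed to 383 to 411.8 TPM in sµg and 393.3 to 413.5 TPM in 1g, most of it THY1, which was called higher, while COL1A1, COL1A2 and PDGFRA were called lower, and COL1A1 averaged 23.8 TPM in sµg and 87.6 TPM in 1g. COL3A1, DCN and LUM, 3 of the 8 fibroblast markers, stayed under 1 TPM in every library. Whether fibroblasts or differentiated cells were present was not tested, nor was their part in the motor and tubulin values. sµg replicate 3 stood apart from the other sµg libraries, and results that rest on it are given with and without it. In these bulk libraries, fewer cells of a type and less RNA per cell cannot be told apart.

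The filter on low counts kept 67 of the 80 members, and edgeR's quasi-likelihood test called 24 of them higher in sµg and 13 lower (adjusted p under 0.05). Over all 16763 genes tested, 15.5% were called higher and 18.2% lower. The median log2 fold change (sµg over 1g) was 0.08 over the tested members and 0.01 over all tested genes, and the members ranged between -0.86 for KIF25 and 0.59 for KIF21A. All 3 sµg values lay above all 3 1g values in CPM (counts relative to the TMM-scaled library total) for 28 members, against 21.8% of all genes, and below them for 15 members, against 23.7%. Kinesins had 16 higher and 6 lower of 37 tested, tubulins 4 and 4 of 13, and dynein subunits 4 and 3 of 17. The 13 members left out by the filter were TUBA3C, TUBA3D, TUBA3E, TUBA3FP, TUBA4B, TUBA8, TUBB1, TUBB8, TUBB8B, DYNLRB2, DYNLT4, KIF2B and KIF4B, none of which exceeded 0.76 TPM in any library.

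**Figure D1:**
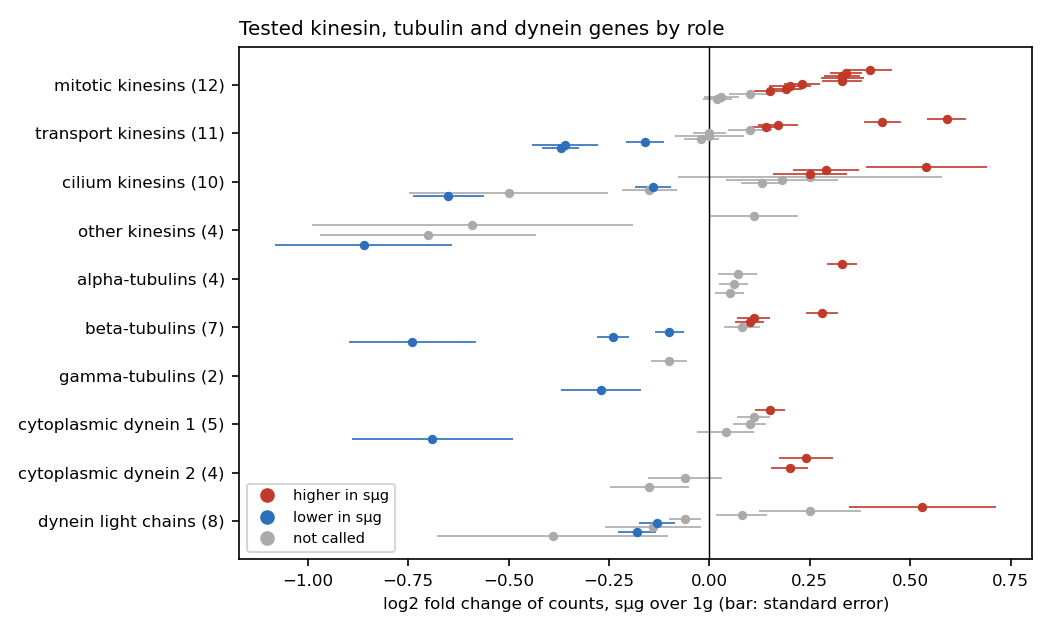
Log2 fold change of counts (sµg over 1g, horizontal axis) of the 67 tested genes, 1 row per role with the number tested in parentheses; points are genes, bars are standard errors and colours give the edgeR call. All 12 mitotic kinesins lie to the right of 0, while transport kinesins and beta-tubulins lie on both sides.

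Mitotic kinesins, a class listed with earlier results of these data known, gave calls in one direction. Of the 12 tested, 9 (75%) were called higher and none lower in sµg by edgeR, against 15.5% and 18.2% of all tested genes. DESeq2 gave the same counts for the class. All 12 mitotic kinesins had positive fold changes, with a median log2 fold change of 0.22, between 0.02 and 0.40. Their summed level was 508, 491 and 464 TPM in sµg, against 417, 435 and 420 TPM in 1g, a ratio of 1.15, and the groups did not overlap (exact permutation test, two-sided, p = 0.1, the smallest that 3 against 3 libraries allow). The 9 calls stayed at 9 or 10 with any library left out. limma on log2(TPM + 1), which also corrects for effective transcript length, called 5.

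KIF23 and KIF18A had the smallest adjusted p-values of the mitotic class. KIF23, the motor of the centralspindlin complex that builds the midzone for cytokinesis (chr15:69414246-69448427), had 114, 112 and 113 CPM in sµg, against 90.0, 92.8 and 85.3 CPM in 1g, with a log2 fold change of 0.34 (SE 0.0408, adjusted p = 3.57e-06). KIF18A, which shortens kinetochore microtubules and damps chromosome oscillation (chr11:28020619-28108156), had 32.8, 33.4 and 33.6 CPM in sµg and 25.5, 24.4 and 25.7 CPM in 1g, with a log2 fold change of 0.40 (SE 0.0540, adjusted p = 1.46e-05). The sµg libraries of both genes lay closely together and well above every 1g library. KIF20B, a kinesin of late cytokinesis (chr10:89701590-89774939), had 86.7, 80.5 and 79.8 CPM in sµg, against 64.1, 66.2 and 66.8 CPM in 1g, with a log2 fold change of 0.33 (SE 0.0444, adjusted p = 1.53e-05). KIF18B, which acts on astral microtubules (chr17:44924709-44947773), had 56.2, 58.3 and 60.5 CPM in sµg and 44.3, 49.3 and 45.9 CPM in 1g, with a log2 fold change of 0.33 (SE 0.0505, adjusted p = 5.54e-05). Again no sµg value fell into the 1g range. KIF23 overlaps the tested antisense gene KIF23-AS1 on the other strand, and the methods give RSEM's default parameters, under which strand is not used, so its reads may include some of that gene. KIF20A (with BRD8 and CDC23) and KIF2A (with DIMT1) have such neighbours too, and KIF15 overlaps TMEM42 on its own strand.

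The remaining 5 calls covered spindle assembly, midzone and microtubule ends. KIF15, which can stand in for KIF11 in keeping the spindle bipolar, had a log2 fold change of 0.33 (adjusted p = 8.65e-05). KIF20A, which carries the chromosomal passenger complex to the midzone, had 0.23 (adjusted p = 0.000485), and KIF14, a partner of PRC1 in cytokinesis, had 0.20 (adjusted p = 0.00726). KIF11, the bipolar motor that pushes the spindle poles apart, had 126, 123 and 122 CPM in sµg and 106, 113 and 107 CPM in 1g, with a log2 fold change of 0.19 (adjusted p = 0.00122). KIF2A, which takes tubulin off minus ends at the poles, had 0.15 (adjusted p = 0.00578). In CPM no sµg library of these 5 genes came down to the 1g range. Even so, sµg replicate 3 was the lowest of its group for KIF20A, KIF14, KIF11 and KIF2A. In TPM, KIF14 had 8.08 in sµg replicate 3, inside its 1g range of 7.6 to 8.12. With limma on log2(TPM + 1) the calls of KIF15, KIF20A, KIF14 and KIF2A were lost (adjusted p = 0.0533, 0.0653, 0.182 and 0.0518). With an offset of effective length those of KIF20A and KIF14 were lost (adjusted p = 0.0502 and 0.102).

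KIF22, KIF2C and KIF4A were not called. KIF22, a chromokinesin that pushes chromosome arms outward and the most abundant of the class at 138, 132 and 131 TPM in sµg and 126, 126 and 125 TPM in 1g, had a log2 fold change of 0.02 in counts (SE 0.0366, adjusted p = 0.682). KIF2C, the depolymerase of centromeres, had 0.03 (adjusted p = 0.695) and KIF4A, the chromokinesin that limits midzone length, 0.10 (adjusted p = 0.149). In CPM the sµg and 1g values of each overlapped, although in TPM those of KIF22 did not. Without sµg replicate 3, KIF4A was called higher (0.14, adjusted p = 0.0270). Of 10 proliferation genes listed beside the motors, 5 were called higher and none lower by edgeR, against 15.5% and 18.2% of all tested genes. None was lower at an unadjusted p under 0.05 or by DESeq2. The 5 were CDK1, TOP2A, CCNB1, CCNA2 and MKI67, and PLK1 and AURKB were among those not called. The 10 genes summed to 1396 to 1443 TPM in sµg, against 1319 to 1334 TPM in 1g, and their part in the motor values was not tested.

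**Figure D2:**
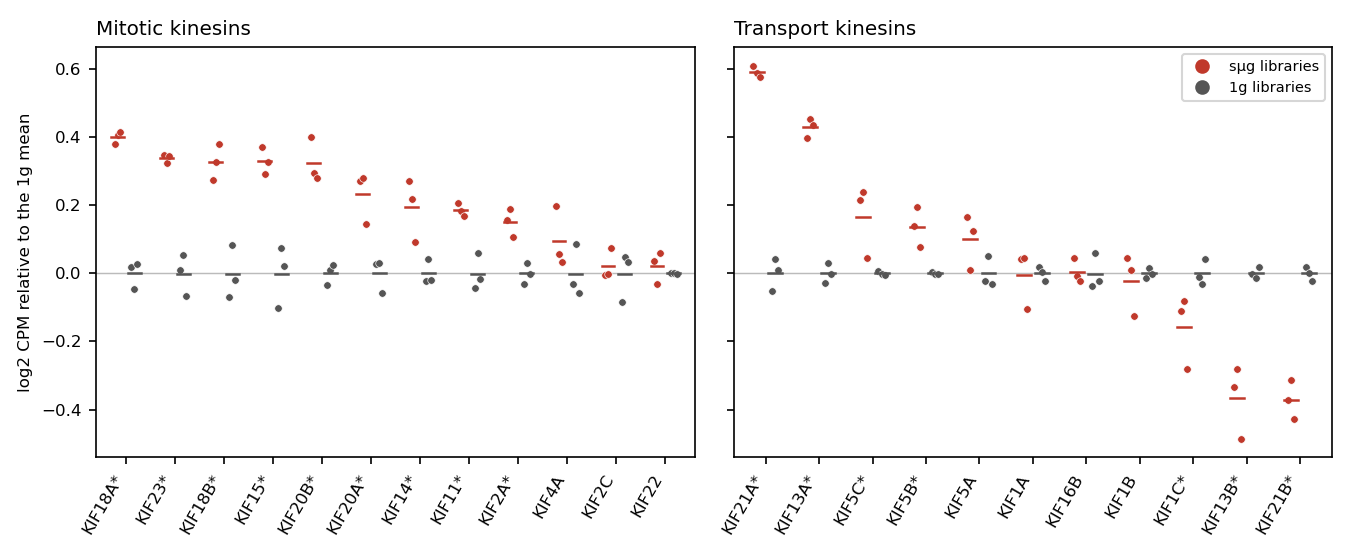
Scaled CPM of each library relative to the 1g mean of the gene (log2, vertical axis) for the 12 mitotic and 11 transport kinesins; red points are sµg libraries, grey points 1g libraries, lines are means of 3, and an asterisk marks an edgeR call. KIF23 had 114, 112 and 113 CPM in sµg, above its 3 1g libraries, and KIF21B 48.2, 50.2 and 46.3 CPM, below its 3 1g libraries.

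Start-site windows of the mitotic kinesins are shown because 9 of the 12 tested were called in one direction. RefSeq (GRCh38.p14) gave windows of 250 bases before to 50 bases after a start for 71 of the 80 members, 91 windows in all. They were searched on both strands for the core of the cell cycle homology region (CHR: TTTGAA or TTTAAA) and for the CCAAT box (CCAAT), letters known from promoters of cell cycle genes. A CHR hexamer stood in 11 of 15 windows of mitotic kinesins (73.3%) and in 2 of 13 windows of transport kinesins (15.4%), against 24.0% of all 35116 windows and 17.5% of the 17706 windows of tested genes. CCAAT stood in 66.7% of the mitotic windows and in 34.6% of all windows, and a window with both a CHR hexamer and CCAAT made up 60% of the mitotic windows and 9.27% of all windows. CCAAT stood also in windows of alpha-tubulins (72.7%), gamma-tubulins (2 of 2) and beta-tubulins (50%), where CHR hexamers stood in 27.3%, 0% and 14.3%. These are matches of letters, not measured binding. CHR hexamers not wholly within the bases printed below stood in windows of KIF14, KIF18B and KIF20B (called higher), KIF2C (not called) and KIF4B (not tested). KIF2A (called higher) and KIF2B (not tested) had neither a CHR hexamer nor CCAAT, and KIF22 (not called) had no CHR hexamer. Whether the hexamers go with the calls was not tested. The 100 bases before the start follow for the 6 mitotic kinesins with a CHR hexamer in that stretch, 5 of them called higher and KIF4A not called, with CHR hexamers and CCAAT boxes of either strand in capitals.
KIF11: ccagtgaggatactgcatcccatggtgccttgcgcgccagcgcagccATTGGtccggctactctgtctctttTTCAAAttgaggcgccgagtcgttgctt
KIF15: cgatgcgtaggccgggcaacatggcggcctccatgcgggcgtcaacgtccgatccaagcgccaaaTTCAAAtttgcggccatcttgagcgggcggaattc
KIF18A: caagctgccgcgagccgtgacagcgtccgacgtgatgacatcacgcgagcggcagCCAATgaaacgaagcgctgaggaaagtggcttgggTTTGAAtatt
KIF20A: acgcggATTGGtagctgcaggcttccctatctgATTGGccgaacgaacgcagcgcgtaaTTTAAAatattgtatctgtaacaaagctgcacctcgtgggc
KIF23: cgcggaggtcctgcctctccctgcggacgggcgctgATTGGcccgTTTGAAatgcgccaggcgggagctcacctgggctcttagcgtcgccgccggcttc
KIF4A: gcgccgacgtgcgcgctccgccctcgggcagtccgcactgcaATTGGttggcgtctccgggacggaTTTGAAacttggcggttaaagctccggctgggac
The stretches lie at chr10:92593030-92593129 (plus strand) for KIF11, chr3:44761694-44761793 (plus) for KIF15, chr11:28108157-28108256 (minus) for KIF18A, chr5:138179012-138179111 (plus) for KIF20A, chr15:69414249-69414348 (plus) for KIF23 and chrX:70290004-70290103 (plus) for KIF4A. All but KIF15 also hold a CCAAT box, and KIF20A holds 2.

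Transport kinesins went both ways. Of 11 tested, 4 (36.4%) were called higher and 3 (27.3%) lower in sµg, against 15.5% and 18.2% of all tested genes. The median log2 fold change of the class was 0.00. Its summed level of 248.7, 252.9 and 216.5 TPM in sµg overlapped the 227.3, 225.4 and 233.2 TPM in 1g (exact permutation test, two-sided, p = 0.4). KIF21A, a kinesin-4 motor that restrains microtubule growth at the cell cortex (chr12:39293228-39443390), rose most of all 67 members, with 53.2, 52.4 and 52.0 CPM in sµg, against 33.6, 35.9 and 35.1 CPM in 1g, a log2 fold change of 0.59 (SE 0.0481, adjusted p = 2.46e-08). Its paralog KIF21B (chr1:200969390-201023714) fell, with 48.2, 50.2 and 46.3 CPM in sµg and 63.2, 62.4 and 61.4 CPM in 1g, a log2 fold change of -0.37 (SE 0.0460, adjusted p = 5.41e-06). In both genes the groups were clearly apart, on opposite sides.

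The kinesin-3 pair KIF13A and KIF13B also moved in opposite directions. KIF13A, which carries endosomal cargo (chr6:17759183-17987635), had 53.4, 55.5 and 54.9 CPM in sµg, against 39.8, 41.4 and 40.5 CPM in 1g, with a log2 fold change of 0.43 (SE 0.0461, adjusted p = 9.02e-07). KIF13B, a motor that binds the polarity protein DLG1, had 10.9, 11.3 and 9.81 CPM in sµg and 13.7, 13.6 and 13.9 CPM in 1g, with a log2 fold change of -0.36 (SE 0.0824, adjusted p = 0.00219). KIF1C, a kinesin-3 of Golgi and integrin vesicles, had 139, 142 and 123 CPM in sµg and 149, 147 and 154 CPM in 1g, with a log2 fold change of -0.16 (adjusted p = 0.0156), and its call was lost without 1g replicate 3 (-0.13, adjusted p = 0.0941). None of the 3 lower calls of this class was made by limma on log2(TPM + 1).

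Among the conventional kinesins, KIF5B, the form present in most cells, had 137, 143 and 131 CPM in sµg and 125, 124 and 124 CPM in 1g, with a log2 fold change of 0.14 (adjusted p = 0.0103), and KIF5C, enriched in neurons, had 0.17 (adjusted p = 0.0130). The neuronal form KIF5A had 0.10 (adjusted p = 0.159), and its gene overlaps DCTN2 on the opposite strand. The KIF5B call was lost without sµg replicate 2 (adjusted p = 0.0721), and the KIF5C call without sµg replicate 1, sµg replicate 2 or 1g replicate 3 (adjusted p between 0.0532 and 0.0808). Both calls were also lost with an offset of effective length (adjusted p = 0.0736 for KIF5B and 0.0528 for KIF5C). The same held with limma on log2(TPM + 1) (adjusted p = 0.105 for KIF5B and 0.0945 for KIF5C). KIF1A, a carrier of synaptic vesicle precursors, was the transport kinesin with the highest level, 68.1, 63.4 and 57.3 TPM in sµg against 64.5, 61.5 and 64.6 TPM in 1g, and it was not called (adjusted p = 0.943). KIF1B and KIF16B, a motor of early endosomes, were not called either (adjusted p = 0.733 and 0.978).

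Kinesins of the cilium gave 3 higher and 2 lower calls among 10 tested (30% and 20%, against 15.5% and 18.2% of all tested genes). The higher calls were 2 with DESeq2, 0 with an offset of effective length and 1 with limma on log2(TPM + 1), and the lower calls 1 with each of these. KIF17, a homodimeric kinesin-2 (chr1:20664014-20718017), was called lower under every alternative tried, with 8.17, 8.30 and 7.53 CPM in sµg, against 12.7, 12 and 12.8 CPM in 1g, a log2 fold change of -0.65 (SE 0.0878, adjusted p = 1.56e-05). KIF3C, which pairs with KIF3A, had 72.4, 69.3 and 66.0 CPM in sµg and 77.3, 76.4 and 74.9 CPM in 1g, a log2 fold change of -0.14 (SE 0.0440, adjusted p = 0.0205), and had the highest mean TPM of the class. KIF3A, a subunit of the heterotrimeric kinesin-2 of ciliary transport, went the other way, with 14.3, 12.7 and 14.4 CPM in sµg, against 11.6, 11.5 and 10.9 CPM in 1g, and a log2 fold change of 0.29 (SE 0.0822, adjusted p = 0.0117). In CPM the groups were apart in all 3 genes, but in TPM those of KIF3C overlapped (22.3, 22.3 and 20.4 in sµg, 21.1, 20.6 and 26.3 in 1g). The KIF3C call was lost with DESeq2 (adjusted p = 0.0644), the length offset (adjusted p = 0.497) and limma on log2(TPM + 1) (adjusted p = 0.743), and the KIF3A call with the offset (adjusted p = 0.0537) and limma (adjusted p = 0.0846). With a library left out, the KIF3C call was lost without sµg replicate 2, 1g replicate 1 or 1g replicate 2 (adjusted p between 0.0623 and 0.0860) and the KIF3A call without 1g replicate 3 (adjusted p = 0.0533).

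KIF9, known from motile cilia, had 5.24, 5.12 and 5.44 CPM in sµg, against 4.43, 3.44 and 2.91 CPM in 1g, with a log2 fold change of 0.54 (SE 0.150, adjusted p = 0.00982). It overlaps KIF9-AS1 and KLHL18 on the opposite strand, and its call was lost without 1g replicate 3 (0.40, adjusted p = 0.0645). KIF24, which holds back cilium assembly at the mother centriole, had a log2 fold change of 0.25 (SE 0.0923, adjusted p = 0.0448), and that call was lost with any library left out (adjusted p between 0.0547 and 0.196). DESeq2 did not call KIF24 (adjusted p = 0.138). KIF24 overlaps UBAP1 on the opposite strand. KIF3B, KIF6, KIF7, KIF19 and KIF27 were not called, and KIF3B came nearest, at 0.13 (adjusted p = 0.0668). Without sµg replicate 3, KIF3B was called higher (0.18, adjusted p = 0.00418) and KIF7, a regulator of Hedgehog signalling at the cilium tip, lower (-0.23, adjusted p = 0.00419). Of 8 markers of multiciliated cells, 7 stayed under 1 TPM in every library, and the list summed to 9.22 to 9.60 TPM in sµg and 11 to 11.1 TPM in 1g.

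KIF25 was the member with the largest fall. It had 1.68, 1.19 and 1.41 CPM in sµg, against 2.34, 3.30 and 2.20 CPM in 1g, with a log2 fold change of -0.86 (SE 0.220, adjusted p = 0.00548), and it overlaps KIF25-AS1 on the opposite strand. The atypical kinesins KIF26A and KIF26B and the low KIF12 were not called, with log2 fold changes of 0.11, -0.59 and -0.70 (adjusted p = 0.484, 0.279 and 0.0542). KIF26A was called higher without 1g replicate 1 (0.25, adjusted p = 0.00806), and KIF12 lower without sµg replicate 3 (-0.92, adjusted p = 0.0249). KIF25 rests on few reads. In CPM it lay without overlap below 1g, but in TPM the groups overlapped (1.76, 0.69 and 1.24 in sµg, 1.83, 3.33 and 1.45 in 1g). The KIF25 call was lost with the length offset (adjusted p = 0.146) and limma on log2(TPM + 1) (adjusted p = 0.180).

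Alpha-tubulin came mostly from TUBA1B in both conditions. TUBA1B (chr12:49127782-49131397) had 2638, 2624 and 2562 CPM in sµg and 2580, 2528 and 2438 CPM in 1g, a log2 fold change of 0.05 (SE 0.0370, adjusted p = 0.305), and its share of the alpha-tubulin TPM was 67.6% in sµg and 69.2% in 1g. Without sµg replicate 3 it was called higher (0.07, adjusted p = 0.00824). TUBA1A, the form named for developing neurons (chr12:49184686-49189080), had 438, 468 and 447 CPM in sµg, against 368, 357 and 352 CPM in 1g, a log2 fold change of 0.33 (SE 0.0372, adjusted p = 1.71e-06). Its share was 11.1%, 11.9% and 11.5% in sµg and 9.82%, 9.57% and 9.73% in 1g. With all 6 libraries TUBA1A was the only one of the 4 tested alpha-tubulins called, and its sµg values stood clear of 1g, while TUBA1C and TUBA4A had log2 fold changes of 0.06 and 0.07 (adjusted p = 0.264 and 0.310). Of all 100-base words of its transcripts, 8% also occurred in other genes, mainly TUBA1B and TUBA1C, against 13.5% for TUBA1B, and TUBA1A overlaps TUBA1C on the opposite strand.

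Beta-tubulins divided into 3 higher, 3 lower and 1 not called. Each direction held 42.9% of those tested, against 15.5% higher and 18.2% lower over all tested genes. TUBB, the main form of dividing cells (chr6:30717435-30725538), held 68.3% of the beta-tubulin TPM in sµg and 66.6% in 1g, with 4081, 4119 and 4122 CPM in sµg, against 3873, 3826 and 3822 CPM in 1g, a log2 fold change of 0.10 (SE 0.0353, adjusted p = 0.0412). TUBB3, the class III form used as a neuronal marker (chr16:89921392-89938761), had 125, 130 and 129 CPM in sµg, against 106, 101 and 107 CPM in 1g, a log2 fold change of 0.28 (SE 0.0388, adjusted p = 1.59e-05). TUBB4B, a widely expressed form, had 0.11 (SE 0.0412, adjusted p = 0.0415), and TUBB6 was not called at 0.08 (adjusted p = 0.192). The groups did not overlap for TUBB, TUBB3 or TUBB4B, but the TUBB call was lost with any library other than sµg replicate 3 left out (adjusted p between 0.0936 and 0.156), and the TUBB4B call without 1g replicate 2 or 3 (adjusted p = 0.196 and 0.130). TUBB overlaps MDC1 on the opposite strand.

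TUBB2A, TUBB2B and TUBB4A, forms that are abundant in brain, were lower in sµg. TUBB2A (chr6:3153497-3157544) had 154, 154 and 166 CPM in sµg, against 193, 184 and 183 CPM in 1g, with a log2 fold change of -0.24 (SE 0.0398, adjusted p = 0.000142). TUBB2B, its neighbour on the same chromosome, had 484, 480 and 510 CPM in sµg and 534, 524 and 522 CPM in 1g, with -0.10 (SE 0.0364, adjusted p = 0.0399), a call lost with any library other than sµg replicate 3 left out (adjusted p between 0.104 and 0.178). TUBB4A (chr19:6494319-6502848) had 20.4, 23.6 and 15.1 CPM in sµg, against 33.8, 29.7 and 34.6 CPM in 1g, with -0.74 (SE 0.158, adjusted p = 0.0154), lost without sµg replicate 1 or without 1g replicate 1 (adjusted p = 0.0643 and 0.0532). Every sµg library of the 3 genes stood below every 1g library. TUBB2A and TUBB2B shared 27.3% and 20.9% of their 100-base words with other genes, chiefly each other, so the division of reads between them is uncertain, and TUBB3 shared 18.4%, chiefly with a readthrough gene. TUBB2A overlaps BPHL and TUBB2B overlaps PSMG4, each on the opposite strand.

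Summed tubulin was 7237, 7227 and 6885 TPM in sµg and 6757, 6618 and 6474 TPM in 1g, a ratio of 1.08 without overlap (exact permutation test, two-sided, p = 0.1, the smallest possible). The alpha-tubulins summed to 3685, 3675 and 3432 TPM in sµg and 3398, 3333 and 3199 TPM in 1g, a ratio of 1.09, and the beta-tubulins to 3476, 3473 and 3384 TPM in sµg and 3278, 3207 and 3200 TPM in 1g, a ratio of 1.07. The alpha to beta ratio averaged 1.04 ± 0.0260 in sµg and 1.03 ± 0.0222 in 1g (SD, n = 3 each, exact permutation test, p = 0.5). Within beta-tubulin, the TPM share of TUBB3 averaged 3.37% in sµg and 2.85% in 1g, that of TUBB2A 4.45% in sµg and 5.46% in 1g, that of TUBB2B 11% in sµg and 12.3% in 1g, and that of TUBB4A 0.388% in sµg and 0.674% in 1g, without overlap between the groups. Of the 12 markers of neurons and neural progenitors, 6 stayed under 1 TPM in every library, 8 were tested, none was called higher by edgeR (none at an unadjusted p under 0.05 or by DESeq2) and 3 were called lower (PAX6, NEUROG2 and NEFL). The list summed to 44.3 to 49.8 TPM in sµg and 46.3 to 49.1 TPM in 1g, and its part in the tubulin values was not tested.

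**Figure D3:**
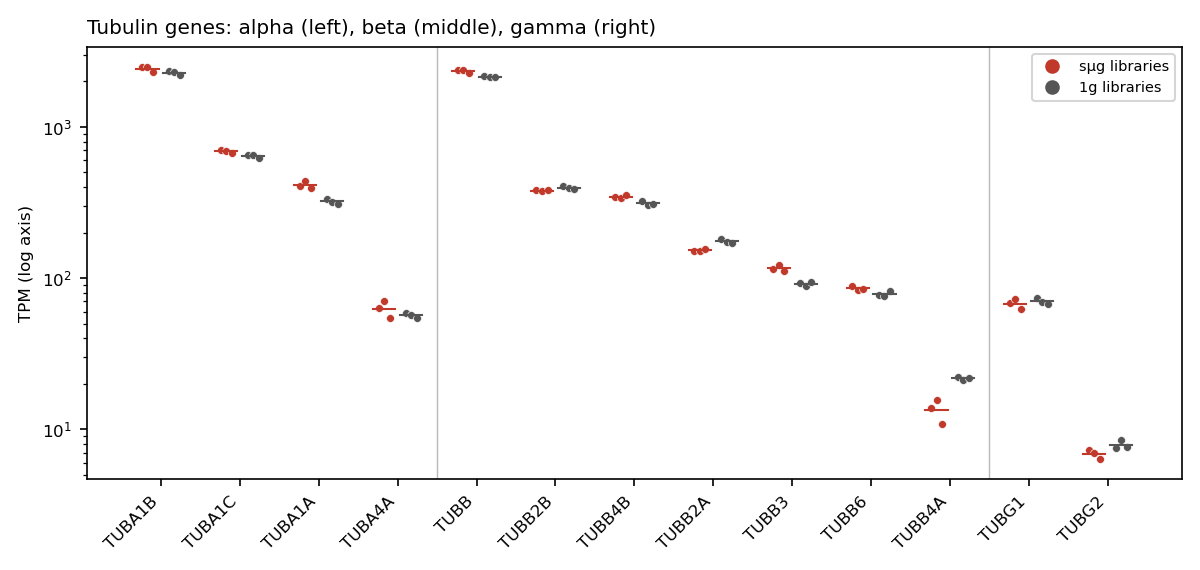
Level of the 13 tested tubulin genes in TPM (log axis), with alpha-tubulins on the left, beta-tubulins in the middle and gamma-tubulins on the right; red points are the 3 sµg libraries, grey points the 3 1g libraries, lines are means. TUBA1B and TUBB stand above all others, and TUBB4A lies lowest of the beta-tubulins, its sµg libraries below its 1g libraries.

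Of the 2 gamma-tubulins, which nucleate microtubules, 1 was called lower. TUBG1, the main gamma-tubulin (chr17:42609641-42615238), had 69.2, 71.6 and 65.7 CPM in sµg and 76.6, 73.2 and 71.8 CPM in 1g, a log2 fold change of -0.10 (SE 0.0454, adjusted p = 0.0899). TUBG2, its low paralog, had 7.88, 7.45 and 7 CPM in sµg, against 8.47, 9.70 and 8.90 CPM in 1g, a log2 fold change of -0.27 (SE 0.0997, adjusted p = 0.0423), lost without sµg replicate 2 or 3 and without 1g replicate 2 or 3 (adjusted p between 0.0837 and 0.153). The TUBG2 call was also lost with DESeq2 (adjusted p = 0.147), the length offset (adjusted p = 0.188) and limma on log2(TPM + 1) (adjusted p = 0.206). Leaving out the filter or adding the replicate block lost it too (adjusted p = 0.0558 and 0.0527). In CPM the sµg libraries of both genes sat below the 1g libraries. In TPM those of TUBG1 overlapped (68.5, 72.5 and 62.6 in sµg, 73.8, 69.6 and 67.6 in 1g). Of the 12 listed ring proteins and other tubulins, 3 were called higher and none lower by edgeR (none lower at an unadjusted p under 0.05 or by DESeq2): NEDD1, which brings the ring to the spindle, at 0.33 (adjusted p = 0.000210), CDK5RAP2, which activates it, at 0.15 (adjusted p = 0.0138), and the ring subunit TUBGCP5 at 0.18 (adjusted p = 0.0410).

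Of the 5 subunits of cytoplasmic dynein 1, 1 was called higher and 1 lower in sµg (20% each). All 17 tested dynein subunits had 23.5% called higher and 17.6% lower, against 15.5% and 18.2% of all tested genes. Over all 17 tested dynein subunits, the 4 higher calls were 3 with DESeq2 and 1, DYNC2I2, with the length offset or limma on log2(TPM + 1), and the 3 lower calls were 1 with DESeq2, 2 with the offset and 1 with limma. DYNC1H1, the motor subunit (chr14:101964573-102056443), had 480, 488 and 398 CPM in sµg and 441, 450 and 443 CPM in 1g, with a log2 fold change of 0.04 (SE 0.0700, adjusted p = 0.746). Its sµg replicates 1 and 2 lay above every 1g library and sµg replicate 3 below every one, and without sµg replicate 3 the log2 fold change was 0.13 (adjusted p = 2.85e-05). DYNC1LI2, a light intermediate chain that binds cargo adaptors, had 128, 125 and 131 CPM in sµg, against 115, 115 and 118 CPM in 1g, with 0.15 (SE 0.0377, adjusted p = 0.00592), a call lost with the length offset and limma on log2(TPM + 1) (adjusted p = 0.0578 and 0.0542). DYNC1I1, an intermediate chain enriched in neurons, had 1.35, 1.54 and 1.41 CPM in sµg, against 2.20, 2.57 and 2.20 CPM in 1g, with -0.69 (SE 0.2, adjusted p = 0.0117), a call lost with DESeq2 (adjusted p = 0.0578) and limma on log2(TPM + 0.1) (adjusted p = 0.0599). The common intermediate chain DYNC1I2 and the light intermediate chain DYNC1LI1 had 0.10 and 0.11 (adjusted p = 0.0665 and 0.0519), and both were called higher without sµg replicate 3 (0.09 and 0.13, adjusted p = 0.0441 and 0.00806), as was DYNC1I2 without sµg replicate 1 (0.13, adjusted p = 0.0387). Without sµg replicate 3, 7 dynein subunits were called higher in place of 4.

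Dynein 2, the motor of return transport in the cilium, had 2 of its 4 subunits called higher and none lower. Over all tested genes 15.5% were called higher and 18.2% lower. DYNC2I2, an intermediate chain (chr9:128633653-128656847), had 50.7, 50.6 and 51.6 CPM in sµg, against 45, 44.9 and 43 CPM in 1g, with a log2 fold change of 0.20 (SE 0.0461, adjusted p = 0.00232). DYNC2H1, the motor subunit (chr11:103109410-103479863), had 24.8, 26.0 and 22.1 CPM in sµg and 20.4, 20.1 and 21.1 CPM in 1g, with 0.24 (SE 0.0681, adjusted p = 0.00961), a call lost without sµg replicate 2 (0.20, adjusted p = 0.0605), with the length offset (adjusted p = 0.235) and with limma on log2(TPM + 1) (adjusted p = 0.220). In CPM the groups were apart in both genes, but in TPM those of DYNC2H1 overlapped (5.1, 5.68 and 6.29 in sµg, 3.03, 5.83 and 4.25 in 1g). DYNC2I2 overlaps SPTAN1 on the opposite strand. DYNC2I1 and DYNC2LI1 had -0.06 and -0.15 (adjusted p = 0.648 and 0.272).

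The dynein light chains, which are shared between dynein and other complexes, gave 1 higher and 2 lower calls of 8 tested. These were 12.5% and 25%, against 15.5% and 18.2% of all tested genes. DYNLL1 was by far the most abundant at 809, 792 and 838 TPM in sµg and 826, 833 and 828 TPM in 1g, with a log2 fold change of -0.06 in counts (SE 0.04, adjusted p = 0.285), and was called lower without sµg replicate 3 (-0.10, adjusted p = 0.00178). DYNLRB1, a roadblock light chain, had 51.9, 53.3 and 53.7 CPM in sµg, against 61.9, 56.9 and 60.8 CPM in 1g, with -0.18 (SE 0.0467, adjusted p = 0.00615), with every sµg library below every 1g library. DYNLL2, the LC8 paralog of DYNLL1, had -0.13 (SE 0.0442, adjusted p = 0.0301), with overlapping groups and a call that was lost without sµg replicate 3, 1g replicate 2 or 1g replicate 3 (adjusted p between 0.0592 and 0.156). DYNLT2 had 4.76, 2.88 and 4.08 CPM in sµg and 3.08, 2.47 and 2.51 CPM in 1g, with 0.53 (SE 0.183, adjusted p = 0.0324), also with overlapping groups and lost without sµg replicate 1, 1g replicate 2 or 1g replicate 3 (adjusted p between 0.109 and 0.187). DESeq2 called neither DYNLL2 nor DYNLT2 (adjusted p = 0.0565 and 0.0757). The summed level of all dynein subunits was 1546, 1538 and 1547 TPM in sµg and 1535, 1545 and 1554 TPM in 1g (exact permutation test, two-sided, p = 1).

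**Figure D4:**
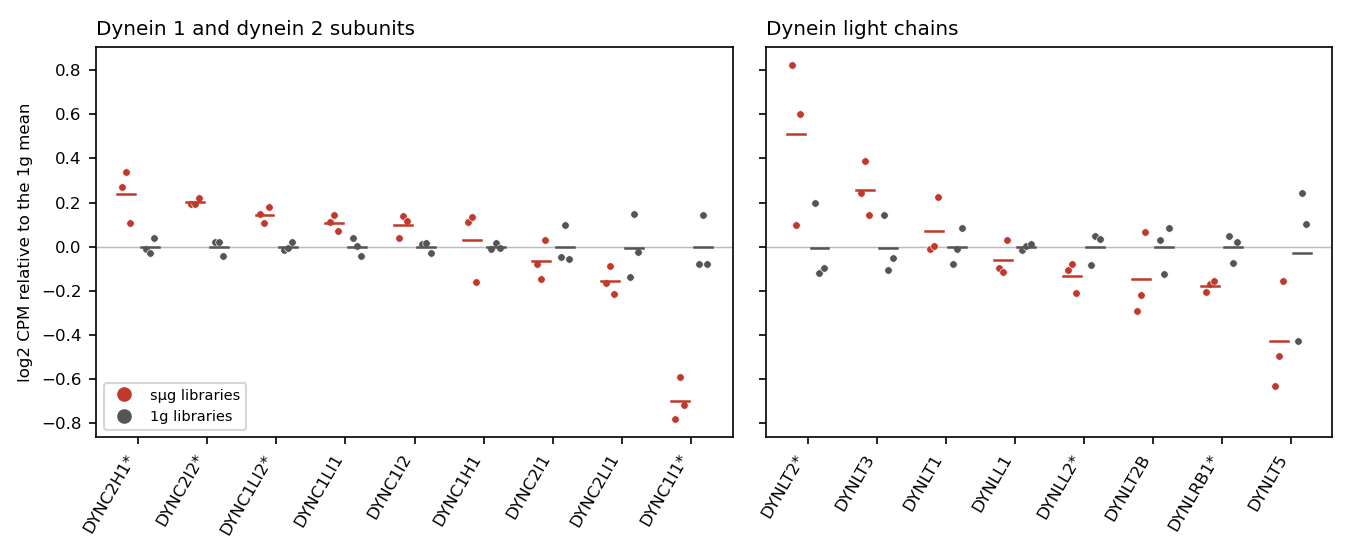
Scaled CPM of each library relative to the 1g mean of the gene (log2, vertical axis) for the 9 subunits of dynein 1 and 2 and the 8 tested light chains; red points are sµg libraries, grey points 1g libraries, lines are means of 3, and an asterisk marks an edgeR call. For DYNC1H1 the points at 480 and 488 CPM lie above the 1g libraries and the point at 398 CPM (sµg replicate 3) below them.

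Genes that work with the motors were read from 5 lists. The counts of each list stand beside 15.5% called higher and 18.2% called lower over all tested genes. Of 14 kinesin light chains, adaptors and kinesins with other symbols, 1 was called higher and 3 lower, with a median log2 fold change of -0.07. The higher one was CENPE, the kinetochore kinesin whose symbol keeps it out of the KIF genes, with 80.8, 79.1 and 76.6 CPM in sµg, against 46.3, 48.4 and 48.6 CPM in 1g and a log2 fold change of 0.72 (SE 0.0441, adjusted p = 4.65e-10). Among the KIF genes the largest rise was the 0.59 of KIF21A. The mitochondrial adaptor TRAK1 and the kinesin light chain KLC3 had -0.16 and -0.53 (adjusted p = 0.0119 and 0.0151). Of 20 dynactin subunits and dynein regulators, 5 were called higher and 3 lower, with a median of 0.01. The kinetochore adaptor SPDL1 had 0.33 (adjusted p = 1.39e-05), the dynein regulator PAFAH1B1 (LIS1) 0.20 (adjusted p = 0.00102) and the cargo adaptor BICD1 -0.37 (adjusted p = 6.82e-06).

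Microtubule-associated proteins had 9 higher and 1 lower call of 24, with a median log2 fold change of 0.04. DCLK1, a doublecortin-like kinase, had 93.4, 88.0 and 83.6 CPM in sµg, against 134.6, 134.8 and 134.5 CPM in 1g, with -0.61 (SE 0.0424, adjusted p = 3.03e-09). STMN3, a stathmin that binds free tubulin, had 77.1, 73.3 and 83.2 CPM in sµg, against 49.7, 51.4 and 55.5 CPM in 1g, with 0.58 (SE 0.0534, adjusted p = 1.63e-07), and MAP1B, a stabilising protein of axons, had 0.35 (adjusted p = 3.50e-06). STMN1, the abundant stathmin, had -0.02 (adjusted p = 0.764). In the list of tubulin folding and modifying proteins, 4 of 20 were higher and 6 lower, with a median of 0.01. VASH1, a carboxypeptidase that removes the last tyrosine of alpha-tubulin, had -0.56 (adjusted p = 6.19e-05), the folding cofactor TBCD -0.19 (adjusted p = 0.000462), and the glutamylase TTLL4 0.20 (adjusted p = 0.00345).

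Transcript by transcript, few calls were made. The tables hold 662 transcripts of the members, 225 of which were tested in 65 genes, and 4 were called, against 1.76% of all 53807 transcripts tested. Before adjustment, 47 of the 225 had p under 0.05, against 13.2% of all transcripts tested. TUBA1A-202 had a log2 fold change of 0.32 (adjusted p = 0.0163), KIF18A-201 0.42 (adjusted p = 0.0281) and TUBB3-201 0.26 (adjusted p = 0.0332), and KIF21B-204 had -0.41 (adjusted p = 0.0181). Each of these is the main transcript of its gene and moved as the gene did, and the share of each within its gene overlapped between sµg and 1g. TUBB2A-201 at -0.25 and KIF20B-201 at 0.31 came next (adjusted p = 0.0511 and 0.0562). Without sµg replicate 3 there were 3 calls, and without any other library 0.

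Transcript shares within a gene differed by 5 points or more without overlap for 9 of the 628 transcripts of tested members (1.43%), against 2.76% of the transcripts of all tested genes. They belonged to 7 of 67 members (10.4%), against 18.6% of all tested genes, and the shares were not tested. DYNC2LI1-201, the full-length form, was 35.2%, 26.6% and 35.1% of the TPM of its gene in sµg and 51.3%, 35.4% and 54.4% in 1g, while the shorter DYNC2LI1-204 was 20.5%, 16.6% and 15.2% in sµg and 8.14%, 12.4% and 7.20% in 1g. DYNC2LI1-208 averaged 11.2% in sµg and was listed at 0 in all 3 1g libraries. KIF7-201 was 56.5%, 60.4% and 53.9% in sµg, against 71.0%, 65.3% and 61.7% in 1g. KIF3A-202 averaged 29.9% in sµg and 40.7% in 1g, KIF21A-213 3.45% in sµg and 10.3% in 1g, and TUBG2-201 72.0% in sµg and 79.7% in 1g, all lower in sµg. TUBA4A-210, which has no coding frame, averaged 39.0% in sµg and 29.7% in 1g, and KIF3C-205, with a retained intron, 6.60% in sµg and 1.27% in 1g, both higher. None of the tested ones among these passed the transcript test (adjusted p between 0.224 and 0.968).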

How the data were processed

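RNA was read from 6 libraries made with a stranded poly(A) kit. Per the labels, the authors ran STAR 2.7.7a for alignment on GRCh38.p13, followed by RSEM 1.3.3. The methods give default settings and a further alignment with a looser filter, and do not tell from which of them these tables were made. The deposited tables give, per gene and transcript, the authors' expected count (reads shared among genes are divided by probability), not scaled between libraries, the TPM and the effective length. Gene types and positions came from GENCODE 44 (GRCh38). It paired 60419 of 60719 genes and 19920 protein-coding ones.

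Expected counts were rounded and tested with edgeR 4.0.16 in R 4.3.3 (robust quasi-likelihood test, TMM scaling, filterByExpr at min.count 10 and min.total.count 15, condition as the only factor), with Benjamini-Hochberg adjustment over all genes or all transcripts. CPM values are TMM-scaled. SE is the log2 fold change divided by the root of F. Levels of different genes were compared in TPM. Summed TPM and shares were compared by exact permutation tests. Results were recomputed with RLE scaling, DESeq2 1.42.0, without a filter, with a filter of 10 counts in every library, with an offset of effective length, limma 3.58.1 on log2(TPM + 1) and log2(TPM + 0.1), a replicate block, an adjusted p under 0.01, and each library left out; for the sums the last was added after seeing the data. Shared sequence was counted as 100-base words of GENCODE 44 transcripts.

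The members, role lists and partner lists were chosen with earlier results of these data known. Genes given in full were, per role, the 4 called members with the smallest adjusted p and the member with the highest TPM, the 5 largest rises and the 5 largest falls, per partner list the 3 with the smallest adjusted p, and the 6 transcripts with the smallest adjusted p with those whose share differed by 5 points or more without overlap; other genes were named after their values were seen. The depth per library is given in the report, and precision is lowest for genes with few reads such as KIF25.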

Additional observations from a re-analysis of the deposited data

How the results depend on the processing

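Of the 37 called members, 12 were called under all 15 alternatives (KIF11, KIF13A, KIF17, KIF18A, KIF18B, KIF20B, KIF21A, KIF23, TUBA1A, TUBB2A, TUBB3 and DYNC2I2), and none reversed. DESeq2 called 31 members, all of them also edgeR calls in the same direction. The offset of effective length gave 12 higher and 7 lower members, 2 higher transport kinesins and 2 lower tubulins. limma gave 13 higher and 4 lower members with a pseudocount of 1 and 13 and 3 with 0.1, and with either 5 higher mitotic kinesins, 2 higher and 0 lower transport kinesins and 2 lower tubulins. At an adjusted p under 0.01, 6 members were lower, 2 transport kinesins higher and 1 tubulin lower. Over all genes, 1242 were higher and 1864 lower with the offset, 1495 and 1459 with limma at a pseudocount of 1, 1480 and 1444 at 0.1, and 1587 were higher at an adjusted p under 0.01. Cilium kinesins called higher were 0 with the offset and 1 with either limma fit, and called lower 1 with DESeq2, the offset or limma. Dynein subunits called higher were 1 with the offset or limma, and called lower 1 with DESeq2 and limma at a pseudocount of 1 and 0 at 0.1. The cause of these losses was not tested.

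The replicate block, which takes equal replicate numbers as pairs, left 22 higher and 10 lower members, 1 lower tubulin (TUBB2A) and 0 called transcripts of members. The correlations of deviations were 0.00406, 0.0414 and 0.0126 between equal numbers, and -0.0286 to 0.0172 between unequal numbers. sµg replicate 1 correlated best with 1g replicate 3 (0.0088) and sµg replicate 3 with 1g replicate 1 (0.0172). Values this near 0 cannot tell whether the numbers pair the samples.

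With each library left out, calls ranged between 17 and 29 for higher members, 9 and 14 for lower members, 9 and 10 for higher mitotic kinesins, 2 and 4 for higher transport kinesins, 2 and 3 for lower transport kinesins, 2 and 3 for lower tubulins and 0 and 3 for transcripts. The summed dynein ratio was 0.999 in TPM and 1.01 in CPM. Reversals touched uncalled members only: DYNC1H1 had -0.05 with the length offset, -0.02 in both limma fits and between -0.01 and 0.13 with a library left out, DYNC2LI1 0.03 in both limma fits, KIF2C -0.0013 with the offset, KIF16B -0.00034 with no filter, and, with a library left out, the ranges were -0.02 to 0.05 for KIF2C, -0.02 to 0.03 for KIF16B, -0.04 to 0.45 for KIF6, -0.03 to 0.05 for KIF1A and -0.06 to 0.03 for KIF1B.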
